A study of Mus musculus with 13 samples.

Results

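The genes described here encode the receptors for serotonin (symbols beginning Htr), dopamine (Drd), adrenaline and noradrenaline (Adra and Adrb) and acetylcholine (the muscarinic Chrm and the nicotinic Chrna, Chrnb, Chrnd, Chrne and Chrng genes). Genes were taken by symbol, and the set was chosen with earlier results of these data known. Of the 22517 gene symbols to which the authors' peak annotation assigned a peak, 49 carried one of these stems. The 49 are 14 serotonin, 5 dopamine, 9 adrenergic, 5 muscarinic and 16 nicotinic receptor genes, and they account for 1620 of the 533196 listed peaks. All 49 RefSeq protein-coding genes of mouse whose symbol fits the rule were present in the lists.

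The study mapped chromatin in cultured olfactory basal cells, which were isolated from the adult olfactory epithelium of wild-type C57BL6 mice for their expression of the receptor c-KIT. The cells grew as adherent cultures on gelatin in NeuroCult medium with EGF, FGF2, heparin, BMP4 and SB431542, so these agents were common to every sample. ChIP-seq (sequencing of immunoprecipitated chromatin) covered RING1B, the catalytic subunit of Polycomb repressive complex 1 (PRC1), for CBX8, a PRC1 subunit that can bind trimethylated lysine 27 of histone H3, for that modification itself (H3K27me3), and for its acetylated form (H3K27ac), found at active promoters and enhancers. Each antibody has 2 libraries, and 5 input samples belong to the series; the inputs have no list of their own here. Replicate 1 of both RING1B and H3K27me3 was made from line 1 at passage 12. From line 2 came the second H3K27me3 library (passage 11), the first H3K27ac library (passage 13) and, at passage 19, the second RING1B and the first CBX8 library. The second libraries of CBX8 and H3K27ac were made from line 3 at passage 14. The 2 libraries of an antibody therefore differ in cell line and in passage for all 4 antibodies, so antibody, line and passage cannot be told apart for most pairs of libraries.

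Most of these receptors are G-protein-coupled receptors, and they raise cyclic AMP through Gs, lower it through Gi and Go, or activate phospholipase C through Gq. The Htr3 and nicotinic receptors are instead ligand-gated cation channels assembled from several subunits, and the nicotinic genes fall into subunits of neuronal receptors and subunits of the receptor at the nerve-muscle junction. In the olfactory mucosa, adrenergic and cholinergic nerve fibres reach the glands and vessels, and muscarinic and adrenergic signals are known to modulate the responses of olfactory sensory neurons. Polycomb complexes are known to occupy many promoters of neuronal genes in cells that do not use them, often over stretches rich in the dinucleotide CpG.

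The promoters of 8 receptor genes show the range of sequence and of marks among the 49. Each stretch holds the 250 bases before a gene start in the RefSeq promoter table (GRCm38.p6, the assembly behind mm10), read 5′ to 3′ on the strand of the gene, with every CpG in capitals. CG reads the same on both strands, and 93% of the 17492 protein-coding genes with an entry in that table hold at least 1 CpG in this window. The first 3 promoters carried both PRC1 subunits and H3K27me3. Adra2a, at chr19:54045009-54045258 on the plus strand, has 22 CpG. Htr2c, at chrX:146962263-146962512 on the plus strand, has 5. Chrna5, at chr9:54981238-54981487 on the plus strand, has 17.
Adra2a: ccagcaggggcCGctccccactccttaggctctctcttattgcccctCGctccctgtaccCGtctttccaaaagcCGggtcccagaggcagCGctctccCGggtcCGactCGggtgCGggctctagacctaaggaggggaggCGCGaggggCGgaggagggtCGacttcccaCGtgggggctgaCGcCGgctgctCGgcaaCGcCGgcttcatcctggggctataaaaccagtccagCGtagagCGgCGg
Htr2c: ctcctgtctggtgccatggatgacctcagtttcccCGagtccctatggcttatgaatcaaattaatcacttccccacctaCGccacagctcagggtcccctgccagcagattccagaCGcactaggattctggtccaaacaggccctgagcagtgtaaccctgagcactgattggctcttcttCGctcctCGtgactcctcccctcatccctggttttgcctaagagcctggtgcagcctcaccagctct
Chrna5: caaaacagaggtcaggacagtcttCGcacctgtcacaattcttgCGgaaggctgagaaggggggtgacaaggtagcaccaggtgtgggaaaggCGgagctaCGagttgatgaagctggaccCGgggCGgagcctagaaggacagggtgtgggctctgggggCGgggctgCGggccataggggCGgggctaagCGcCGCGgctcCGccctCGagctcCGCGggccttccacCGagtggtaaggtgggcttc

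The next 2 promoters carried strong H3K27ac and no H3K27me3. Chrm3, at chr13:10360804-10361053 on the minus strand, has 10 CpG and also carried RING1B. Chrnb1, at chr11:69795938-69796187 on the minus strand, has 14 and carried no other mark in both replicates. Its RING1B peak was listed in replicate 2 only, at a fold of 4.49.
Chrm3: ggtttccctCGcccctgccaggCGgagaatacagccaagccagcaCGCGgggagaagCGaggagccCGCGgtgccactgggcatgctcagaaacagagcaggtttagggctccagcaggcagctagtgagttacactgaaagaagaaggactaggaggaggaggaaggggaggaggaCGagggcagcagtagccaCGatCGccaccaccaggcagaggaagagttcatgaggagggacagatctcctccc
Chrnb1: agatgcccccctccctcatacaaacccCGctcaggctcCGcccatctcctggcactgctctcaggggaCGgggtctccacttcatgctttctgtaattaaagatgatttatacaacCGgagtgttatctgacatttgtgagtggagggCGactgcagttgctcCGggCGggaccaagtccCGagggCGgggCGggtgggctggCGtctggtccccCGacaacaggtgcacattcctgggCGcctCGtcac

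The following 2 carried H3K27me3 and none of the other 3 antibodies' peaks in both replicates. Chrna7, at chr7:63212527-63212776 on the minus strand, has 25 CpG, and Htr3b, at chr9:48964991-48965240 on the minus strand, has 1. The last, Chrne, at chr11:70619195-70619444 on the minus strand, has 1 CpG and no peak assigned within 2 kb in any of the 8 libraries.
Chrna7: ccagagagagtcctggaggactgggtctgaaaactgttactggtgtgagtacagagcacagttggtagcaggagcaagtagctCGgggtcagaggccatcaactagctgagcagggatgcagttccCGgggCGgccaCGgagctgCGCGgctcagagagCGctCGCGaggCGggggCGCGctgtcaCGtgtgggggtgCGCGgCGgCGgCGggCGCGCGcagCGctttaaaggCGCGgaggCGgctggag
Htr3b: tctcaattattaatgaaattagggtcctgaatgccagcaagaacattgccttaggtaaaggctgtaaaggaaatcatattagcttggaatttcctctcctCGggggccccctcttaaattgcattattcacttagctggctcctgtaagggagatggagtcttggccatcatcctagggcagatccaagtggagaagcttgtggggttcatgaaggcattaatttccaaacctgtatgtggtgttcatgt
Chrne: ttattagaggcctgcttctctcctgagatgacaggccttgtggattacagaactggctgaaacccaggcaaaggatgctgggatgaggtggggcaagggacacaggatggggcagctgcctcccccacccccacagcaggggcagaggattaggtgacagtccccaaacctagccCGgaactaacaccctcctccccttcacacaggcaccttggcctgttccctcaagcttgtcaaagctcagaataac

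A gene was called marked by an antibody when each of its 2 libraries listed a peak assigned to that gene at most 2000 bp from the annotated start. H3K27me3 marked 36 of the 49 receptor genes (73.5%), against 20.7% of all symbols. H3K27ac marked 13 (26.5%), against 55.6%. RING1B marked 15 (30.6%), against 12.8%, and CBX8 marked 11 (22.4%), against 6.28%. The receptor genes thus carried H3K27me3, RING1B and CBX8 more often, and H3K27ac less often, than symbols at large; these are descriptions of gene counts, and no test was made over genes. Of protein-coding symbols alone, 21.8% had H3K27me3, 59.6% H3K27ac, 14.1% RING1B and 6.72% CBX8, and the receptor genes lay on the same side of each of these shares.

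**Figure D1:**
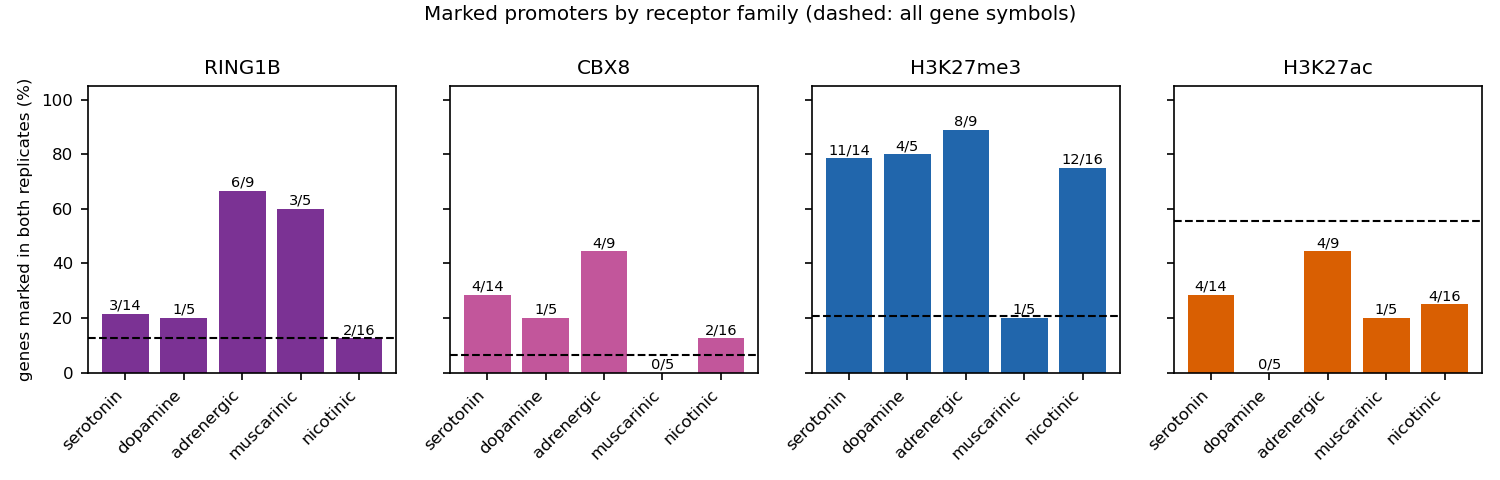
Share of each receptor family (x axis) marked in both replicates by each antibody (y axis, percent of genes), with the number of genes above each bar and a dashed line at the share of all gene symbols. The H3K27me3 bars of the serotonin, dopamine, adrenergic and nicotinic families stand far above the dashed line at 20.7%, the muscarinic bar (1 of 5) does not, and every H3K27ac bar lies below its line at 55.6%.

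Combinations of marks gave the same picture gene by gene. H3K27me3 without the other 3 was the most frequent state, with 16 receptor genes (32.7%) against 10.4% of symbols. These 16 were Adra2c, Chrna2, Chrna6, Chrna7, Chrna9, Chrnb2, Chrnb3, Chrnd, Chrng, Drd1, Drd2, Htr1d, Htr1f, Htr3a, Htr3b and Htr5a. RING1B together with H3K27me3 marked 12 genes (24.5%), against 5.78% of symbols, while RING1B without H3K27me3 marked 3 (6.12%), against 7.04%. Both PRC1 subunits marked 7 genes (14.3%), against 4.25%: Adra2a, Adrb1, Adrb3, Chrna5, Htr2a, Htr2c and Htr5b, each of which also carried H3K27me3. All 11 receptor genes marked by CBX8 carried H3K27me3, as did 75.1% of all symbols marked by CBX8. Among those marked by RING1B, 80% of the receptor genes and 45.1% of all symbols carried it. None of the 4 antibodies marked 8 genes (16.3%), against 28.8% of symbols: Chrm1, Chrm5, Chrna10, Chrne, Drd3, Htr1a, Htr1b and Htr2b.

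For 3 pairs of libraries the labels give the same line and passage, without saying whether they came from the same culture. In line 1 at passage 12, 12 receptor genes (24.5%) had a promoter peak of both RING1B and H3K27me3, against 7.22% of symbols. In line 2 at passage 19, RING1B and CBX8 coincided at 12 receptor genes (24.5%), against 7.06%. In line 3 at passage 14, CBX8 and H3K27ac coincided at 10 receptor genes (20.4%), against 17.2%, a share near the background.

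**Figure D2:**
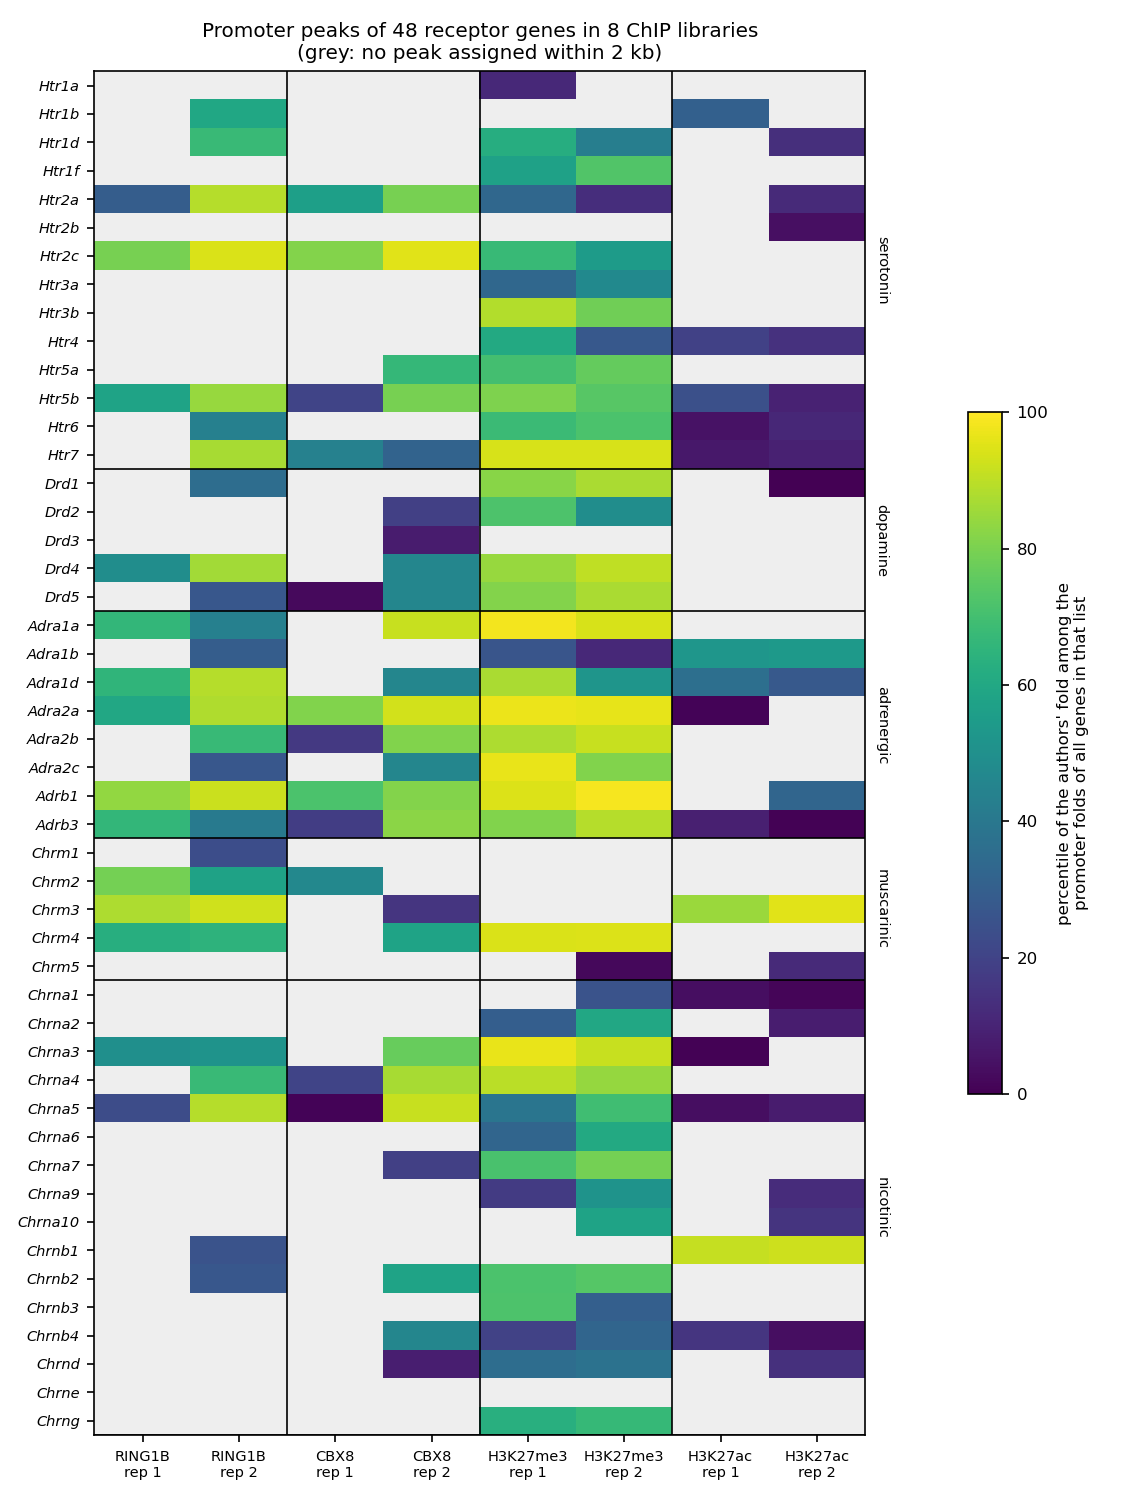
Promoter peaks of 48 of the 49 receptor genes (rows, grouped by transmitter) in the 8 libraries (columns); colour gives the percentile of the authors' fold enrichment among the promoter folds of all genes in the same list, and grey marks genes with no assigned peak within 2 kb. Htr2c is bright in the RING1B and CBX8 columns, Adra2a and Adrb1 in the H3K27me3 columns, Chrm3 and Chrnb1 in the H3K27ac columns, and most other H3K27ac cells are dark or grey.

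The adrenergic genes were the family with the highest shares of RING1B and CBX8. RING1B marked 6 of 9 (66.7%, against 12.8% of symbols) and CBX8 4 (44.4%, against 6.28%). H3K27me3 marked 8 (88.9%, against 20.7%) and H3K27ac 4 (44.4%, against 55.6%). All 6 alpha-adrenergic genes carried H3K27me3. Adra2a, which encodes an inhibitory receptor found on noradrenergic nerve endings, had RING1B folds of 6.18 and 8.95 (replicates 1 and 2), CBX8 folds of 11.6 and 18.4, and H3K27me3 folds of 5.34 and 5.51. The lower of its H3K27me3 values was the highest such value of the 49 genes, and the 2 values stood at percentiles 96.9 and 96.4 of the promoter folds in their lists. Its H3K27ac peak was listed in replicate 1 only, at a fold of 2.32. The authors' fold is the enrichment of a peak over its control, and it ranks peaks within a list but is not on the same scale for the narrow peaks of RING1B and CBX8 and the broad peaks of the histone marks.

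Adrb1, the main beta-adrenergic receptor of the heart, had a RING1B fold of 10.1 and 10.5, with CBX8 at 7.91 and 7.36 and H3K27me3 at 4.97 and 6.52, the last of which was at percentile 98.8 of its list. Its H3K27ac promoter peak was listed in replicate 2 (line 3) at 6.26 and not in replicate 1 (line 2). Adrb3, the receptor that drives lipid breakdown in fat cells, had peaks of all 4 antibodies in both replicates: RING1B reached 6.62 and 4.99, CBX8 4.91 and 7.72, H3K27me3 3.99 and 4.50, and H3K27ac 2.71 and 2.34. It was the single receptor gene with bases listed in all 8 libraries within 2 kb of a start, a stretch of 173 bp.

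Adra1a, Adra1b and Adra1d encode Gq-coupled receptors that contract smooth muscle. Adra1a had H3K27me3 at 5.62 and 5.07 and RING1B at 6.62 and 5.12, with CBX8 at 15.4 in replicate 2 and none in replicate 1. Adra1d combined RING1B (6.58 and 9.24) and H3K27me3 (4.35 and 3.07) with H3K27ac (7.08 and 5.49). Adra1b had H3K27ac at 9.14 and 9.33 and H3K27me3 at 2.94 and 2.55. The Adra1b H3K27me3 promoter peaks of the replicates lay 434 and 1651 bp from the start and had no base in common. Within 10 kb of that start, 328 bp were listed under H3K27me3 in both replicates. Adra2b carried CBX8 (4.79 and 7.26) and H3K27me3 (4.37 and 4.73), with RING1B at 6.25 in replicate 2 only. Adra2c carried H3K27me3 at 5.31 and 3.92, and in replicate 2 only also RING1B (up to 4.51) and CBX8 (up to 5.15).

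**Figure D3:**
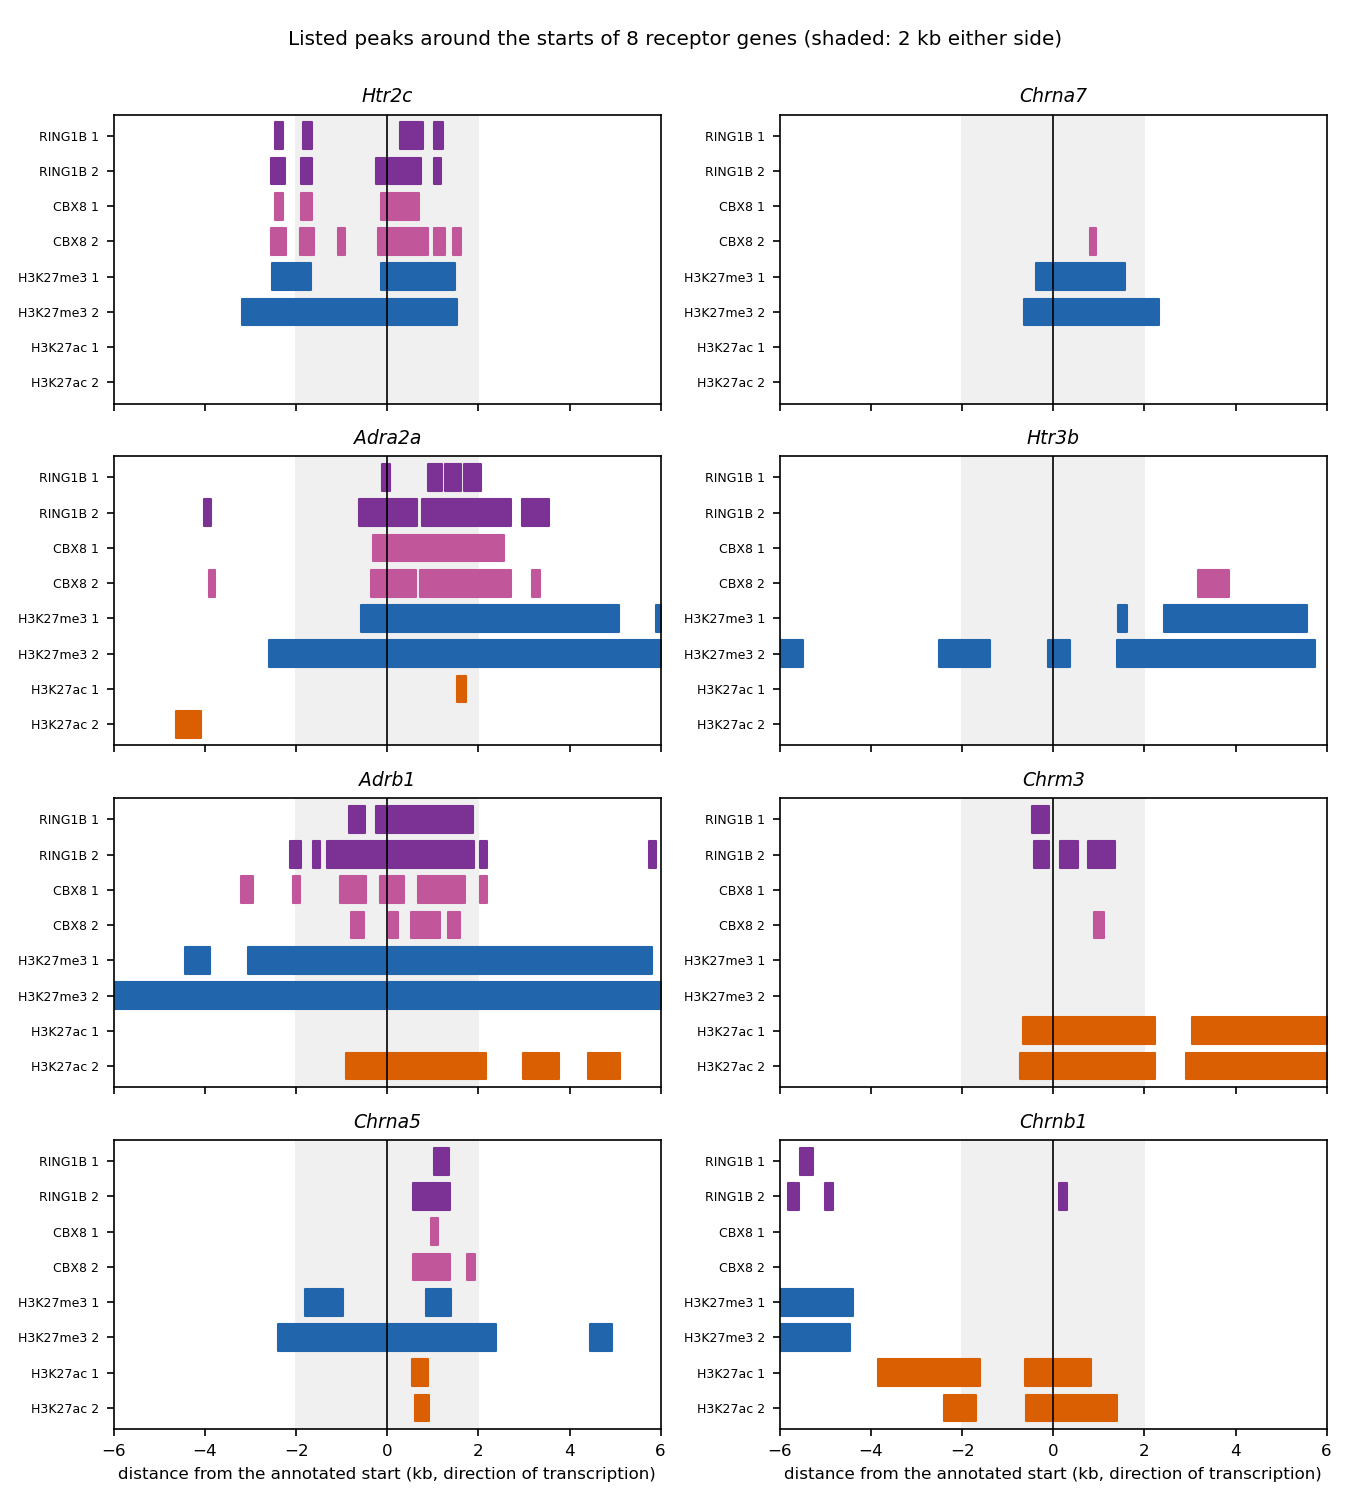
Listed peaks (bars) of the 8 libraries around the annotated start of 8 receptor genes; the x axis is the distance from the start in kb in the direction of transcription, the shaded band the 2 kb on either side, and peaks are drawn whichever gene they were assigned to. PRC1 and H3K27me3 peaks lie together over Htr2c, Adra2a and Adrb1, H3K27me3 covers the start of Chrna7 with a single CBX8 peak of 4.41 in replicate 2, and H3K27ac covers the starts of Chrm3 and Chrnb1.

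Among the serotonin receptor genes, H3K27me3 marked 11 of 14 (78.6%, against 20.7% of symbols) and CBX8 4 (28.6%, against 6.28%). RING1B marked 3 (21.4%, against 12.8%) and H3K27ac 4 (28.6%, against 55.6%). Htr2c, a Gq-coupled receptor known from the choroid plexus and hypothalamus, had the highest CBX8 folds of the 49 genes, 11.9 and 28.7, together with RING1B at 8.50 and 12.6. These stood at percentiles 81.4 and 95.4 of promoter folds for CBX8 and at percentiles 79.5 and 94.4 for RING1B. Its H3K27me3 was moderate, at 3.56 and 3.11, and no H3K27ac peak was assigned to its promoter. Htr2a, the related receptor targeted by hallucinogens, had RING1B at 4.96 and 9.33, CBX8 at 6.43 and 6.99, low H3K27me3 of 3.03 and 2.57, and an H3K27ac peak of 3.16 in replicate 2 only. The third gene of this subfamily, Htr2b, had 1 promoter peak in all, H3K27ac at 2.54 in replicate 2.

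Htr5b and Htr7 were the other serotonin genes with a PRC1 subunit in both replicates. Htr5b had RING1B at 6.10 and 8.12, CBX8 at 4.94 and 6.99, and the histone marks at 3.99 and 3.60 (H3K27me3) and 4.82 and 2.95 (H3K27ac). Htr7, a Gs-coupled receptor, had CBX8 at 5.80 and 4.78, H3K27me3 at 4.90 and 5.04 and RING1B at 8.61 in replicate 2 only. Its H3K27ac mark rests on different starts: the peak of replicate 1 (2.58) lay 1995 bp from an internal start, and that of replicate 2 (2.90) lay 35 bp from the main start, so these do not show acetylation of the same promoter.

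The other Gs-coupled serotonin receptors, Htr4 and Htr6, carried both histone marks and were marked by neither PRC1 subunit. Htr6 had RING1B at 5.12 in replicate 2 only. For H3K27me3, Htr4 had 3.42 and 2.74 and Htr6 had 3.58 and 3.50. Their H3K27ac folds were 3.76 and 3.36 for Htr4 and 2.50 and 3.08 for Htr6. Htr3a and Htr3b, the channel subunits, carried H3K27me3 only, at 3.02 and 3.00 for Htr3a and at 4.42 and 3.78 for Htr3b. The inhibitory receptors Htr1d (3.44 and 2.94), Htr1f (3.35 and 3.55) and Htr5a (3.63 and 3.69) were marked by H3K27me3 alone, with folds close between the replicates. Htr1d also had RING1B at 6.32 and H3K27ac at 3.28, and Htr5a had CBX8 at 5.89, each in replicate 2 only. Htr1a had an H3K27me3 peak in replicate 1 only, at 2.81, and Htr1b RING1B at 5.76 in replicate 2 and H3K27ac at 6.03 in replicate 1.

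Of the 5 dopamine receptor genes, H3K27me3 marked 4 (80%, against 20.7% of symbols), RING1B 1 and CBX8 1. H3K27ac marked 0, against 55.6% of symbols. With 5 genes, 1 gene is 20%, so the RING1B and CBX8 counts cannot be told from their backgrounds of 12.8 and 6.28%. Drd4 had RING1B at 5.63 and 8.43 and H3K27me3 at 4.15 and 4.61, with CBX8 at 5.15 in replicate 2. Drd5, a Gs-coupled receptor, had H3K27me3 at 4.02 and 4.35 and CBX8 at 3.93 and 5.15; the CBX8 peaks of the replicates did not overlap, lying 871 and 86 bp from the start. Drd1, the other Gs-coupled member, had H3K27me3 at 4.05 and 4.34, and Drd2, the target of most antipsychotic drugs, 3.68 and 3.02. Drd3 had a single promoter peak, CBX8 at 3.99 in replicate 2. Dopamine receptor genes thus had H3K27me3 in 4 of 5 cases, and their promoter H3K27ac was limited to a peak of Drd1 in replicate 2, at 2.32.

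The muscarinic genes were the family with least assigned H3K27me3, 1 of 5 (20%, near the 20.7% of symbols). RING1B marked 3 (60%, against 12.8%). Chrm4, a Gi-coupled receptor, had H3K27me3 at 4.92 and 5.17, RING1B at 6.31 and 6.05, and CBX8 at 5.52 in replicate 2. Chrm3, the Gq-coupled receptor of glands and smooth muscle, had the highest RING1B fold in the weaker library of all 49 genes, with 12.0 and 11.0, and H3K27ac at 14.2 and 18.4. Its acetylation stood at percentiles 85.1 and 95.5, no H3K27me3 peak was assigned to its promoter, and CBX8 reached 4.19 in replicate 2 only. Chrm2, the receptor that slows the heart, had RING1B at 8.41 and 5.72 and CBX8 at 5.93 in replicate 1. Chrm5 had H3K27me3 at 2.43 and H3K27ac at 3.15, both in replicate 2 only.

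Assignment to the nearest start hides part of the muscarinic signal. The annotated starts of Chrm1, Chrm2 and Htr1b lie 670, 128 and 194 bp from a start of the neighbouring transcripts 9830166K06Rik, 9330158H04Rik and D430036J16Rik, and peaks over the receptor's start were given to these neighbours. Within 2 kb of the Chrm2 start, H3K27me3 peaks of 4.06 and 3.97 and a CBX8 peak of 18.4 in replicate 2 were listed under 9330158H04Rik. Near Chrm1 the neighbour held H3K27me3 at 3.05 and 4.34 and CBX8 at 4.56 and 4.05. Near Htr1b it held H3K27me3 at 3.09 and 2.57 and H3K27ac at 7.62 in replicate 2. Counted by position, whatever the assigned gene, H3K27me3 marked 39 receptor genes, CBX8 13, H3K27ac 14 and none of the antibodies 6, while RING1B stayed at 15, and 22.9, 6.79, 62.9, 21.6 and 14.1% of all symbols met the same conditions. By position, 3 of the 5 muscarinic genes carried H3K27me3. Which transcript a peak belongs to was not tested.

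Among the nicotinic genes, H3K27me3 marked 12 of 16 (75%), RING1B 2, CBX8 2 and H3K27ac 4. RING1B and CBX8 thus each stood at 12.5%, near the background of 12.8% for RING1B and above that of 6.28% for CBX8. H3K27me3 stood above its background of 20.7%, and H3K27ac (25%) below its background of 55.6%. The neuronal subunits had H3K27me3 in 10 of 11 cases, all but Chrna10, and 6 of them had nothing else in both replicates. The muscle subunits had it in 2 of 5, Chrnd and Chrng. Chrna1 and Chrnb1, both subunits of the muscle receptor, were the 2 receptor genes that H3K27ac alone marked in both replicates. Chrnb1 had H3K27ac at 16.0 and 16.7, at percentiles 91.3 and 92.4, whereas Chrna1 had 2.45 and 2.39, at the low end of both lists. With stricter peaks the H3K27ac mark of Chrna1 was lost. In replicate 2 only, Chrna1 also had H3K27me3 at 2.72 and Chrnb1 RING1B at 4.49.

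Chrna5, a subunit that joins other neuronal subunits in one receptor, had all 4 antibodies in both replicates but with uneven folds. RING1B was 4.74 and 9.33, CBX8 3.51 and 14.9, H3K27me3 3.09 and 3.42, and H3K27ac 2.45 and 2.78. Its neighbour Chrna3 had RING1B at 5.68 and 5.42 and H3K27me3 at 5.31 and 4.76, with CBX8 at 6.62 in replicate 2 and H3K27ac at 2.27 in replicate 1. The third gene of the cluster, Chrnb4, had H3K27me3 at 2.88 and 2.81 and H3K27ac at 3.22 and 2.53. The nearest starts of Chrna5 and Chrna3 are 45.1 kb apart and those of Chrna3 and Chrnb4 9.18 kb, and no listed peak lay within 2 kb of the starts of both genes of a pair. The same held for Chrna6 and Chrnb3, for Chrnd and Chrng, and for Htr3a and Htr3b, so the marks of clustered genes came from separate peaks.

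Chrna4, a main subunit of the brain receptor with high nicotine affinity, carried CBX8 at 4.94 and 9.56, H3K27me3 at 4.50 and 4.10 and RING1B at 6.32 in replicate 2 only. Its partner Chrnb2 had H3K27me3 at 3.67 and 3.58, with RING1B (4.51) and CBX8 (5.52) in replicate 2 only. Chrna7, which forms a receptor from copies of itself, had 3.66 and 3.81. The remaining genes with H3K27me3 alone, Chrna2, Chrna6, Chrna9, Chrnb3, Chrnd and Chrng, had folds between 2.78 and 3.68. Chrna10 had H3K27me3 at 3.16 and H3K27ac at 3.47 in replicate 2 only.

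The G-protein-coupled genes and the channels differed in their PRC1 counts more than in H3K27me3. RING1B marked 13 of 31 G-protein-coupled genes (41.9%) and 2 of 18 channel genes (11.1%), the latter near the 12.8% of all symbols. CBX8 marked 9 (29.0%) and 2 (11.1%), against 6.28%. H3K27me3 marked 22 (71.0%) and 14 (77.8%), against 20.7%, and H3K27ac 9 (29.0%) and 4 (22.2%), against 55.6%. By coupling, H3K27ac marked 5 of 8 Gs genes (62.5%), 1 of 14 Gi or Go genes (7.14%) and 3 of 9 Gq genes (33.3%). The Gs share lay near the 55.6% of all symbols and the other shares below it. With stricter peaks the H3K27ac marks of Adrb3, Htr6 and Htr7 (Gs) and of Htr5b (Gi or Go) were lost. The 3 Gq genes kept theirs, so the order of these shares depends on the peak threshold. H3K27me3 marked 7, 10 and 5 of the Gs, Gi or Go and Gq genes. The differences between these groups of genes were not tested.

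Folds were next set beside those of all genes carrying the same mark. Over the 36 genes marked by H3K27me3 the median promoter fold was 3.67 in replicate 1 and 3.57 in replicate 2, against 3.38 and 3.27 over all 4664 symbols so marked. Over the 13 marked by H3K27ac it was 3.76 and 3.08, against 9.21 and 9.32 over all 12521. In the 2 H3K27ac libraries, 3 and 4 of these 13 receptor genes lay above the median of all acetylated genes, so most receptor promoters counted as acetylated held peaks below that median. For RING1B the medians were 6.31 and 8.43 for 15 receptor genes and 5.72 and 7.50 for all 2887 symbols. For CBX8 they were 4.94 and 7.36 for 11 receptor genes and 6.43 and 8.83 for all 1415.

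**Figure D4:**
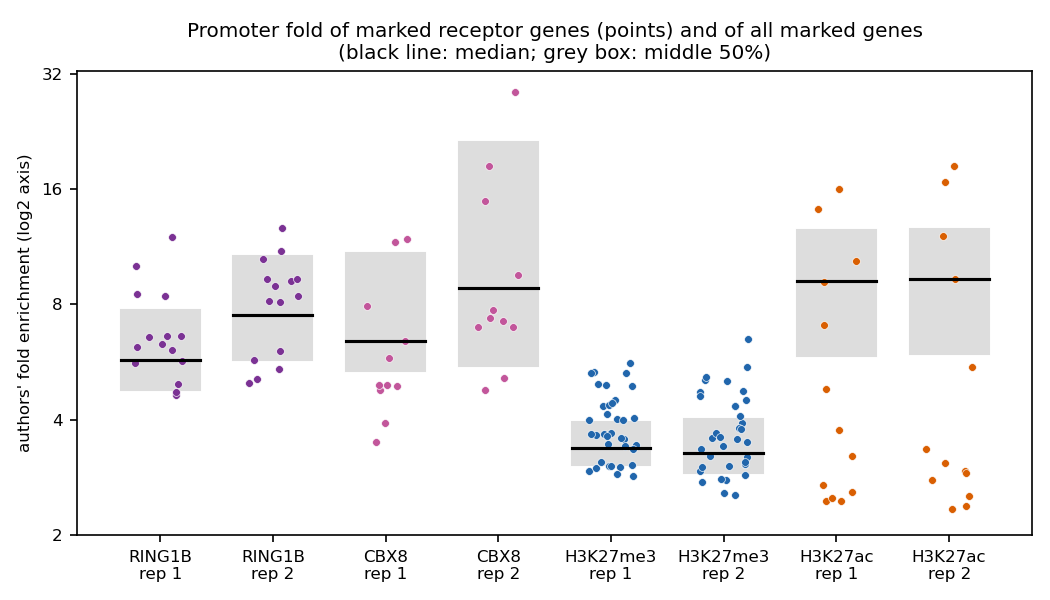
Authors' fold enrichment (y axis, log2 scale) of the promoter peaks of receptor genes marked in both replicates (points) in each of the 8 libraries (x axis), with the median (black line) and the middle 50% (grey box) of all genes marked by that antibody. Most H3K27ac points lie below the grey box in both replicates, with Chrnb1 (16.0 and 16.7) and Chrm3 (14.2 and 18.4) above it, while the H3K27me3 points straddle their box.

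H3K27me3 was stronger and wider at receptor promoters that a PRC1 subunit also marked in both replicates. The 16 receptor genes with H3K27me3 and RING1B or CBX8 had a median H3K27me3 fold of 4.36 and 4.55 (replicates 1 and 2), from 3.03 to 5.62 and from 2.57 to 6.52. The 20 with H3K27me3 that neither PRC1 subunit marked in both replicates had 3.45 and 3.21. Their folds ran from 2.85 to 5.31 and from 2.55 to 4.34, so the ranges overlapped. Some of these 20 held a PRC1 peak in replicate 2 only, such as Htr1d (RING1B, 6.32) and Htr5a (CBX8, 5.89). The split thus depends on the shorter PRC1 lists of replicate 1. Median peak widths were 4466.5 and 6161 bp for the 16 genes and 1765.5 and 2830 bp for the 20. All symbols, split by the same rule, showed the same order of folds. Their medians were 3.92 and 4.03 for 1562 symbols with PRC1 and 3.24 and 3.10 for 3102 without.

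In replicate 2 the widest H3K27me3 promoter peak was that of Adra2c (6792 bp in replicate 1 and 35032 bp in replicate 2), and in replicate 1 that of Chrna4 (14387 and 24971 bp). Those of Adra2b measured 13802 and 22852 bp, of Adrb1 8881 and 13295 bp, of Drd5 7881 and 12436 bp and of Adra2a 5654 and 14173 bp. Each was wider in replicate 2, and a broad region can be listed as 1 peak in one library and as several in the other, so width is less comparable between libraries than presence. Among genes marked in both replicates, the narrowest in replicate 1 were those of Chrna9 (179 bp) and Htr3b (191 bp).

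Both histone marks were found at 9 receptor genes (18.4%), against 6.37% of symbols: Adra1b, Adra1d, Adrb3, Chrna5, Chrnb4, Htr4, Htr5b, Htr6 and Htr7. Of receptor genes with H3K27me3, 25% also had H3K27ac, against 30.8% of all symbols with H3K27me3. This direction turned without replicate 1 of each antibody, where the shares were 48.7 and 44.3%, and under stricter peaks they were 0 and 13.3%. Of those with H3K27ac, 69.2% also had H3K27me3, against 11.5%. Bases under H3K27me3 in both replicates and under H3K27ac in both replicates were found at 5 of the 9: Adra1d (1381 bp), Htr4 (1207 bp), Adrb3 (381 bp), Htr6 (113 bp) and Chrna5 (44 bp). Within line 2, where H3K27me3 was profiled at passage 11 and H3K27ac at passage 13, the peaks shared bases at 7 of the 9, all but Adra1b and Htr7. Shared bases were not counted over all symbols with both marks, so these counts have no background and show no trait of receptor genes. Whether both marks sat on the same nucleosomes, on the 2 alleles or in different cells cannot be told apart in these libraries.

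Many receptor promoters held a PRC1 peak in replicate 2 only. RING1B was listed in replicate 2 alone at 13 of the 49 receptor genes, a smaller share than the 31.6% of all symbols. This was therefore no trait of the receptor genes for RING1B. CBX8 was listed in replicate 2 alone at 14 of the 49, a larger share than the 21.1% of all symbols. The second RING1B list holds 32918 peaks and the first 7578, and for CBX8 these numbers are 77417 and 9926. Without RING1B replicate 1, 28 receptor genes (57.1%) would count as marked, against 44.5% of symbols, and without CBX8 replicate 1, 25 (51%), against 27.4%. Without H3K27ac replicate 1, 23 (46.9%) would count, against 61%. Of the 49 genes, 10 had an H3K27ac promoter peak in replicate 2 (line 3) alone, a larger share than the 5.40% of all symbols. In replicate 1 (line 2) alone 3 had one, a share nearer to that of all symbols (4.14%). The 10 were Adrb1, Chrm5, Chrna10, Chrna2, Chrna9, Chrnd, Drd1, Htr1d, Htr2a and Htr2b, with folds from 2.32 (Drd1) to 6.26 (Adrb1). The part of line, passage and depth in these differences was not tested.

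A few calls rest on peaks close to the 2000 bp limit. The nearest peak just inside it was at 1995 bp for Htr7 (H3K27ac replicate 1), 1911 bp for Chrna3 (H3K27ac replicate 1, fold 2.27) and 1821 bp for Drd4 (RING1B replicate 1, fold 5.63). Just outside were Htr1d at 2097 bp (CBX8 replicate 2, fold 4.05), Chrna1 at 2182 bp (H3K27me3 replicate 1, fold 2.98) and Htr2a at 2304 bp (H3K27ac replicate 1, fold 5.14). A slightly wider limit would thus add H3K27ac to Htr2a and H3K27me3 to Chrna1.

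Away from promoters, acetylated regions concentrated on a few adrenergic genes and Chrm3. The authors' annotation gave Adra1b 27 H3K27ac peaks beyond 2 kb in each replicate, more than 97.7 and 98.5% of symbols had. Adrb1 had 26 and 16, Adra1d 17 and 11 and Chrm3 12 and 21, against a median of 2 per symbol in both replicates. For Adra1b, 21 of the peaks of replicate 1 overlapped one of replicate 2. Assignment is to the nearest start, so a gene with distant neighbours collects more peaks, and which gene these regions act on was not tested. No distal H3K27ac peak was assigned to Adra2b, Chrm2, Chrna4, Chrna6, Chrna7, Chrnb1, Chrnb3, Chrng, Htr1a or Htr3b in either library.

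CpG number before the start varied with the marks. The promoter table held 37 of the 49 receptor genes, with the start of the highest CpG number taken where it gave several. The 12 genes with H3K27me3 and RING1B or CBX8 that had an entry had a median of 22.5 CpG in 250 bases, from 4 to 41. The 14 with H3K27me3 that neither PRC1 subunit marked in both replicates had 11.5, from 1 to 25. Some of these 14, such as Htr1d and Htr5a, held a PRC1 peak in replicate 2 only. The 7 with no mark had 2, from 1 to 6. These groups follow the assigned peaks. Counted by position, Htr1b (6 CpG), 1 of those 7, carried both histone marks. The RefSeq starts used for CpG can differ from the annotated starts used for the marks. For Htr1b the CpG window was chr9:81633833-81634082, while the annotated start was at 81632552. All 37 had a median of 12, and the 17492 protein-coding genes had 11. Htr7 (41) and Drd5 (35) had the most, and both carried CBX8 with H3K27me3.

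**Figure D5:**
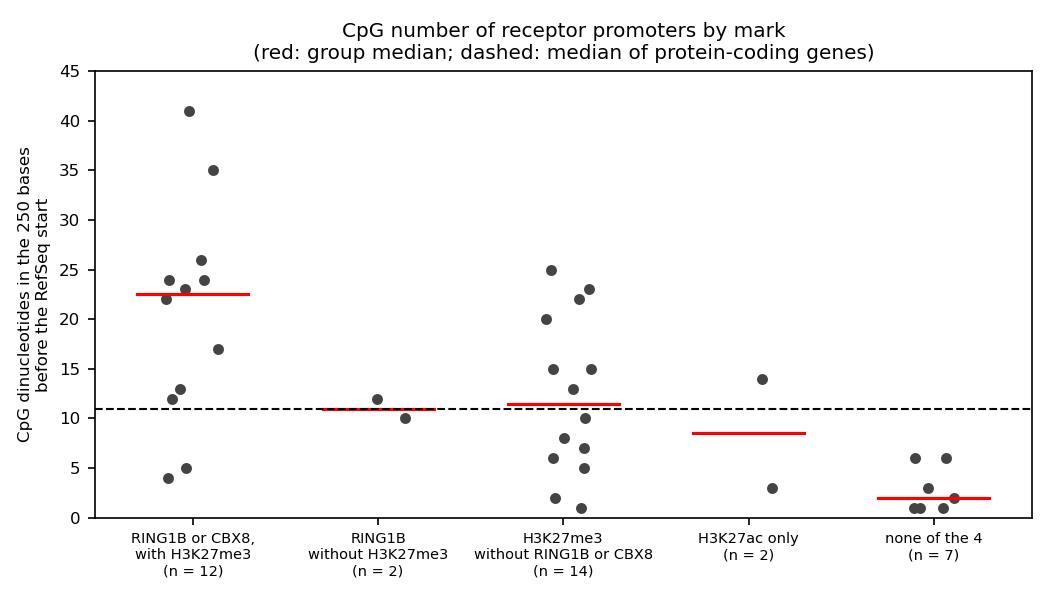
CpG dinucleotides in the 250 bases before the RefSeq start (y axis) of 37 receptor genes, grouped by their marks (x axis); red lines are group medians and the dashed line is the median of protein-coding genes, 11. The 7 genes with no mark by assigned peaks lie at 6 or below, while genes with H3K27me3 and a PRC1 subunit range from 4 to 41.

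The printed stretches show both the trend and its exceptions. Adra2a, Chrna5 and Chrna7 are dense in capitals and carried H3K27me3, with PRC1 at the first 2 and not in both replicates at Chrna7. Htr2c, with 5 CpG, had the highest CBX8 folds of the 49 genes, and Htr2a, with 4, also carried both PRC1 subunits. Htr3b and Chrne each have 1 CpG, yet H3K27me3 marked Htr3b, where the peak of replicate 1 lay 1422 bp from the start, and not Chrne. The CpG number is a count of letters in 1 window and says nothing of the bases beyond it.

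A list of 61 genes that work with these receptors, all with a peak in the lists, was set beside them. RING1B marked 17 of these (27.9%, against 12.8% of symbols), CBX8 10 (16.4%, against 6.28%) and H3K27me3 34 (55.7%, against 20.7%). H3K27ac marked 33 (54.1%), near its background of 55.6%. The enzymes that make the transmitters had H3K27me3 at 6 of 7 (Th, Ddc, Dbh, Pnmt, Tph1 and Chat) and H3K27ac at 1, Ddc. Transporters and breakdown enzymes had 8 and 6 of 14, with H3K27ac and no H3K27me3 at Maoa and Slc18a1, among others. G proteins and effectors had RING1B at 12 of 22, CBX8 at 5, H3K27me3 at 13 and H3K27ac at 15. Genes of receptor desensitization had H3K27ac at 6 and H3K27me3 at 2 of 8. Chaperones and anchors of nicotinic receptors had 5 of each mark among 10.

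Within that list, Gnal, the G-protein subunit of olfactory signalling, had RING1B at 10.2 and 16.3, CBX8 at 13.0 and 30.2 and H3K27me3 at 5.41 and 4.91. Gnas, its close relative used by Gs receptors in most cells, carried all 4: folds of 7.81 and 12.7 for RING1B, 9.89 and 5.89 for CBX8, 4.13 and 3.55 for H3K27me3 and 16.7 and 13.9 for H3K27ac. Lypd6, a regulator of nicotinic receptors, had RING1B at 6.95 and 12.8. The next CBX8 values were those of Lrp4, a receptor of the nerve-muscle junction (7.61 and 8.83), and Kcnj3, a potassium channel opened by Gi receptors (6.71 and 11.0). Lypd1, another regulator of nicotinic receptors, had H3K27me3 at 5.22 and 5.23, and Adcy5, an adenylyl cyclase, at 5.31 and 4.996. Gnaq (17.5 and 17.4), Gnai3 (16.7 and 18.1) and Plcb4, a phospholipase C (14.8 and 17.6), had the strongest H3K27ac. In both replicates, these 3 transducers held acetylation above that of every receptor gene other than Chrnb1 and Chrm3. Gnaq and Gnai3 also lay above Chrnb1 (16.0 and 16.7) in both.

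As a check of the labelled cell type, H3K27ac marked 4 of 4 genes of horizontal basal cells (Krt5, Krt14, Trp63 and Itgb4) and 4 of 8 of globose basal cells and progenitors (Sox2, Hes6, Ezh2 and Mki67), against 55.6% of all symbols. Counts of 4 of 8 here and of 2 of 4 below lie near that background and distinguish no cell type. Kit, the gene of the receptor used for sorting, had RING1B and H3K27me3 in both replicates and an H3K27ac promoter peak in replicate 2 only, at 2.45. H3K27ac marked 0 of 3 genes of immature neurons and 0 of 4 of sustentacular cells. It marked 2 of 4 of mature sensory neurons (Omp and Adcy3), 2 of 4 of fibroblasts (Col1a1 and Pdgfra), 1 of 4 of skeletal muscle (Myog), 1 of 3 of Bowman's glands (Aqp5) and 1 of 3 of immune cells (Csf1r). The muscle receptor genes Chrnb1 and, with low folds of 2.45 and 2.39, Chrna1 had H3K27ac beside Myog, while Myod1, Acta1 and Ckm had no H3K27ac mark. The part of other cells in the receptor results was not tested.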

How the data were processed

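ChIP-seq peak lists of 8 libraries (RING1B, CBX8, H3K27me3 and H3K27ac, 2 each) were used. The submitters' processing notes name MACS2 2.1.1.20160309, BWA 0.7.12, Trim Galore 0.4.3 and bcl2fastq 2.17, and the build mm10. Options, duplicate handling and each list's control are not stated in these notes. The authors deposited, for each peak, a fold enrichment over the control (a linear ratio) and a −log10 q-value, and the annotation to a gene and its distance from that gene's start. The lists of the histone marks reach down to a −log10 q-value of 1.01 and those of RING1B and CBX8 to 2.01 and 2.02, as deposited. The lists hold no read counts, so the depth behind a peak cannot be stated; an absent peak means that none was listed. Some peak names hold the word combined, which no source explains, so whether libraries were pooled in those lists is not known.

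From these, all rows whose symbol fits the receptor stems were taken, with Python 3.11.15 and pandas 2.3.3. A gene's promoter fold is that of its highest peak within 2000 bp of an annotated start, and its percentile is among all genes with such a peak in that list. A gene counted as marked when both replicates listed such a peak, and the background is the share of all 22517 symbols meeting the same condition. The marking step was tested on simulated peak lists. The receptor genes, their grouping and the other gene lists were chosen with earlier results of these data known. All counts include every receptor gene; 1 of them, and 2 genes of the other lists, are not reported here by name. Values were given for those with RING1B or CBX8, for the 6 with the highest H3K27me3 or H3K27ac fold in the weaker replicate, for those with both histone marks, for those with a strong PRC1 peak in 1 replicate and for those near the distance limit; other values were chosen after they were seen. Of the list of 61 related genes (63 symbols, 2 of them former names of genes also listed), the 3 highest for each antibody were named. The 2 libraries of an antibody come from different lines, and the counts come with no test because genes are not replicates. Alternatives were windows of 1000 and 5000 bp, stricter peaks (−log10 q-value of at least 5 for RING1B and CBX8 and 3 for the histone marks), overlap of the replicates' peaks by 1 bp or by 50% of the shorter, counting by position, peaks at any distance and each replicate alone. Promoter sequences came from a RefSeq table (GRCm38.p6), which matched 37 of 49 genes by symbol.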

Additional observations from a re-analysis of the deposited data

How the results depend on the processing

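RING1B marked 15 receptor genes under every alternative except a 1000 bp window (13) and the use of replicate 2 alone (28). With stricter peaks, H3K27me3 fell to 15 receptor genes (6.23% of symbols), CBX8 to 4 (3.98%), H3K27ac to 6 (50.3%) and both PRC1 subunits to 4 (3.18%), while those with no mark rose to 24 (42.4%) and the share of H3K27me3 genes with H3K27ac fell to 0% (13.3%). A 5000 bp window gave 20 receptor genes with H3K27ac (61.1% of symbols) and 4 with no mark (22.7%). Assigned peaks at any distance gave 34 with H3K27ac (78% of symbols), 1 with no mark (10.7%), and 68.3% of H3K27me3 genes with H3K27ac (78.9%). Without replicate 2 and without replicate 1, in that order, the counts were 15 and 28 for RING1B (13.7 and 44.5% of symbols), 12 and 25 for CBX8 (8.11 and 27.4%), 37 and 39 for H3K27me3 (26.9 and 30.3%), 16 and 23 for H3K27ac (59.8 and 61%), 8 and 19 for both PRC1 subunits (4.69 and 17.4%) and 6 and 2 for no mark (24.3 and 16.5%). The share of H3K27me3 genes with H3K27ac was 29.7 and 48.7%, against 45.4 and 44.3% of symbols, so it lay below the background without replicate 2 and above it without replicate 1. No paired analysis was possible because the counts come from no test. The cause of these changes was not tested. Depth is unknown, so a missing peak sets no upper limit on a mark.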
